A study of Mus musculus with 46 samples.

Results

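The 9 genes described here are widely used markers of cell senescence and of the p53 pathway: Trp53, Mdm2, Cdkn1a, Cdkn2a, Cdkn2b, Cdkn2c, Gdf15, Lmnb1 and Glb1. They were chosen by gene name, with earlier results of these data already known. All 9 were among the 17242 genes measured at 12 weeks and the 18531 genes measured at 18 months. RNA of whole kidney and whole liver was sequenced from wild-type C57BL6 mice that underwent castration or a sham procedure at 8 weeks of age and were sampled at 12 weeks or 18 months. The 46 libraries form 12 groups: sham-operated males (shamM) and sham-operated females (shamF) with 3 libraries per age and tissue, and castrated males (casM) with 6 libraries per tissue at 12 weeks and 5 at 18 months. All groups share the wild-type genotype, ordinary chow and water and pathogen-free housing. Castration removes the testes, the main source of androgens. Females without ovaries and castrated males given androgen are not among the groups, so ovarian hormones, sex chromosomes and the lack of testes cannot be told apart in the comparisons with females. The series addresses how castration relates to healthy ageing and to the differences between the sexes.

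p53, encoded by Trp53, is a transcription factor that is stabilised when DNA is damaged or a cell is stressed. It switches on Cdkn1a, whose product p21 halts the cell cycle by inhibiting cyclin-dependent kinases, and Mdm2, the ubiquitin ligase that marks p53 itself for degradation. The INK4 inhibitors p16 (from Cdkn2a), p15 (Cdkn2b) and p18 (Cdkn2c) block the kinases that phosphorylate the retinoblastoma protein and so keep cells out of S phase. Senescent cells are known for a lasting p21 or p16 arrest, for loss of lamin B1 (Lmnb1), for a lysosomal β-galactosidase activity that comes from Glb1, and for secreting cytokines, proteases and stress hormones such as GDF15. In ageing kidney and liver, Cdkn1a and Cdkn2a RNA are the readouts used most often, although Cdkn1a and Gdf15 also respond to hormones, feeding and metabolic stress without p53.

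The p53 protein binds pairs of a short sequence called a half-site, and genes of lysosomal enzymes often carry the E-box CACGTG near their start. Both motifs were searched on both strands of the RefSeq promoter table (GRCm38.p6), in windows from 250 to 11 bases before each start, and 8 of the 9 genes matched the table. The following windows are shown because they hold such matches. Cdkn1a is the p53 target called in both directions in these data. Mdm2 is a p53 target without a call in its listed comparisons, and Glb1 is the lysosomal enzyme. Capitals mark the matches, and each window is written 5′ to 3′ on the strand of its gene.
Cdkn1a, chr17:29090729-29090968, plus strand, p53 half-sites in capitals: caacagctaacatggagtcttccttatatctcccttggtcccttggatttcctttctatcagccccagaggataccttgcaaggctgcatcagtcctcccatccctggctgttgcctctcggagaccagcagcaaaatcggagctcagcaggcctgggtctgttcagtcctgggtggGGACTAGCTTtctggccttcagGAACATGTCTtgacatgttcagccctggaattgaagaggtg
Mdm2, chr10:117710769-117711008, minus strand, p53 half-site in capitals: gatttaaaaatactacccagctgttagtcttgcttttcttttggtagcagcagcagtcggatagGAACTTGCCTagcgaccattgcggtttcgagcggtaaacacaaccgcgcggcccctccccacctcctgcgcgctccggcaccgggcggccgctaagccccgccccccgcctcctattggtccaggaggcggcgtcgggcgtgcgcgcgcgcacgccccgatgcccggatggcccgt
Glb1, chr9:114400828-114401067, plus strand, CACGTG in capitals: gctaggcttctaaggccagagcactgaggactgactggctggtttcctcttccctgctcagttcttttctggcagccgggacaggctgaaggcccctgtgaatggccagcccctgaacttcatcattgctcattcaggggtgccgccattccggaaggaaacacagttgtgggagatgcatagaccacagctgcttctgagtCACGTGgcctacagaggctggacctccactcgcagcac

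The Cdkn1a window shown held 2 half-sites, GGACTAGCTT from 73 to 64 bases and GAACATGTCT from 51 to 42 bases before its start. A second Cdkn1a window, before another start of the gene (chr17:29093519-29093758), held 0. The Mdm2 window held 1, GAACTTGCCT, from 186 to 177 bases before the start. The other gene with a match was Trp53 itself, with GGACTTGCCC from 75 to 66 bases before the start, in a window that overlaps an exon of its antisense neighbour Wrap53. A p53 half-site was present in 6.87% of all 32851 promoters of this length and in 7.92% of 27025 genes, against 3 of the 8 genes here and 7 of 20 other p53 target genes in the table. The E-box of Glb1 lay 48 to 43 bases before the start, and a second one lay 83 to 78 bases before a start of Gdf15. CACGTG was found in 5.69% of all promoters and 6.49% of genes, and in 7 of 15 lysosomal genes. None of these matches overlap each other. These are matches of letters and were not tested for binding.

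Expression values are the authors' group means, in FPKM (a fragment count scaled by transcript length and library total) at 12 weeks and in a normalized signal of unnamed unit at 18 months. No spread, no library values and no depth accompany them. The folds and p-values below come from the authors' deposited tables, and a gene is said to have risen or fallen when the adjusted p there was under 0.05. The tables do not give the number of libraries behind each direction. The labels number the libraries but do not say that each came from its own animal, so these p-values measure the spread between libraries. A standard error (SE) was implied from each fold and its p (18 months) or its test statistic (12 weeks). Castration (castrated over sham males) and sex (sham females over sham males) share the sham males, so a pattern seen in both is not independent evidence. In RNA of whole tissue, fewer cells of a type and less RNA per cell cannot be told apart. The kidney marker Slc34a1 was between 1199 and 1533 FPKM in 12-week kidney and at most 0.49 in 12-week liver. The liver marker Alb was between 45200 and 49900 in 18-month liver and at most 65.1 in 18-month kidney, but was listed at 0 in all 12-week liver groups, which was taken as a failed estimate.

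At 18 months every gene of the 9 was tested in each comparison. In kidney, castration changed 3 of the 9, with Cdkn1a higher and Glb1 and Trp53 lower, against a background of 22.7% of all 17872 genes tested. Sex changed 2 of the 9 in kidney, Trp53 and Glb1, both lower in females, against 16.8% of 17625 genes. Castrated males differed from females in 1 gene, Glb1, against 7.14% of 17889 genes. In liver, castration raised 1 of the 9, Cdkn2c, against 2.09% of 16883 genes. Sex changed the same gene alone, higher in females, against 9.78% of 16659 genes, and Gdf15 was the 1 gene that differed between castrated males and females, against 1.13% of 16971 genes. With 9 genes a single call moves the share past these backgrounds, so the results rest on single genes and not on the group.

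At 12 weeks each gene was listed for only 1 of the 3 comparisons, with no stated reason for which one, and the listing appears tied to the result, so counts are lower bounds. In kidney, 1 of 2 genes tested for castration fell, Cdkn1a, against 70.7% of the 3851 genes tested. All 3 genes tested for sex changed, Cdkn2b and Gdf15 higher and Glb1 lower in females, against 86.5% of 3011 genes. None of the 3 tested for castrated males against females (Cdkn2c, Mdm2 and Lmnb1) was called, by Cuffdiff, with 0 at an unadjusted p under 0.05, against 7.7% of 5635 genes. In liver, castration changed 2 of 4 genes tested, Cdkn1a lower and Gdf15 higher, against 41.7% of 5058 genes. No gene of the 9 was listed for sex in 12-week liver, where 100.0% of the 628 genes tested were called. Of the 3 tested for castrated males against females in 12-week liver, 0 were called by Cuffdiff and 1 (Cdkn2c) had an unadjusted p under 0.05, against 6.85% of 5588 genes.

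**Figure D1:**
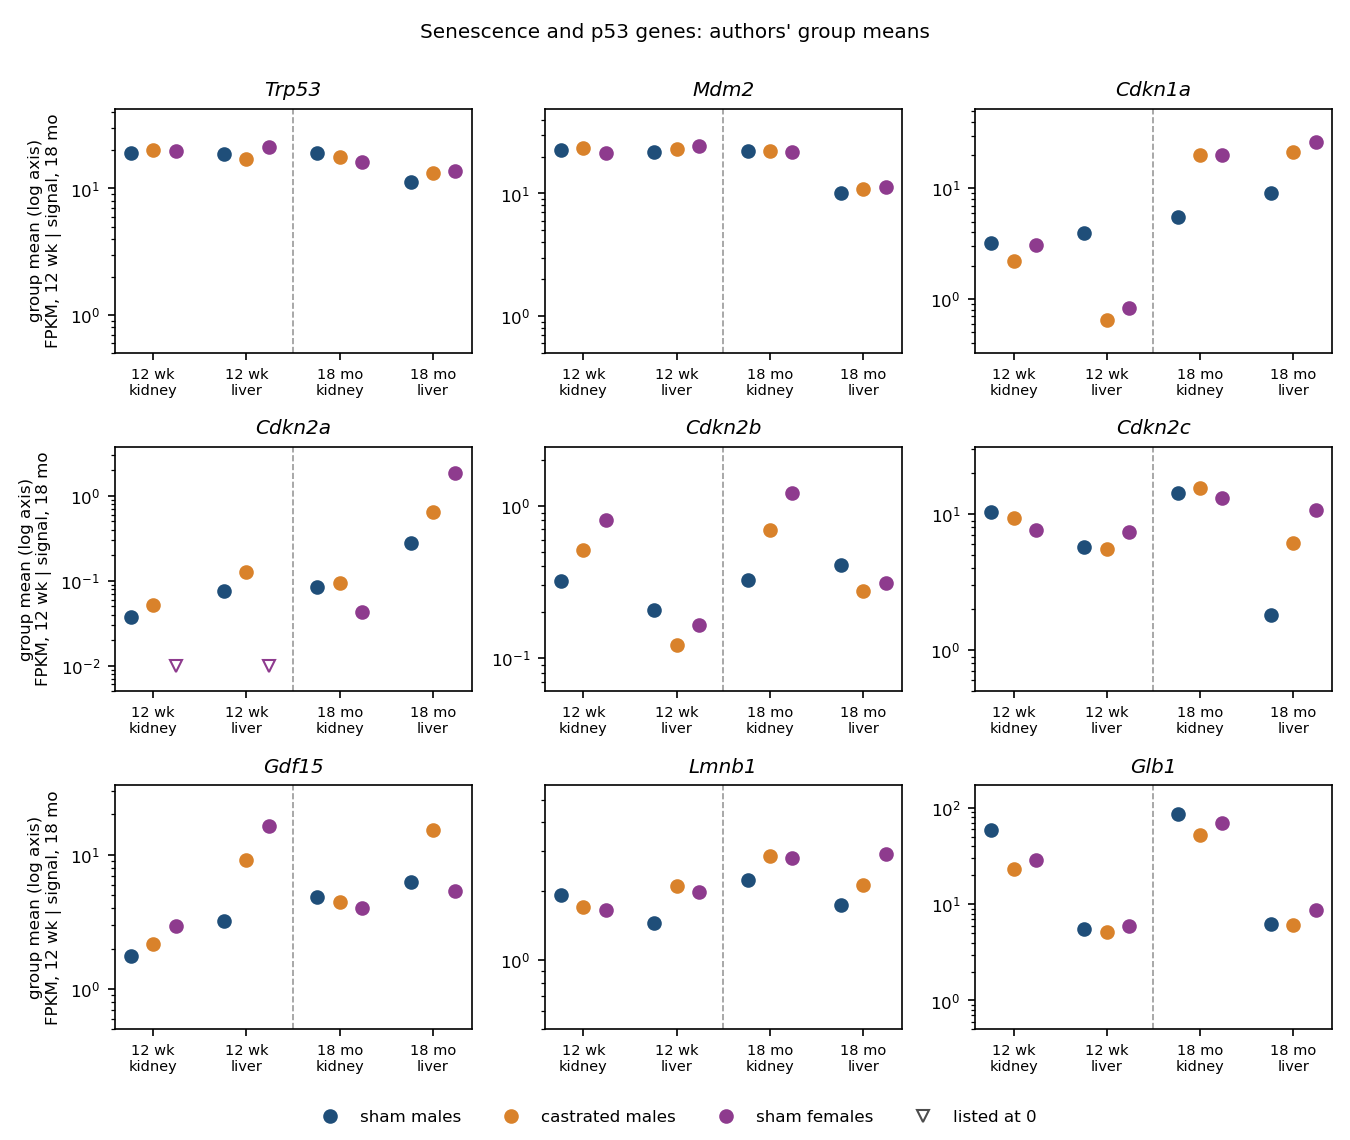
Authors' group means of the 9 genes (log axes; FPKM at 12 weeks, normalized signal at 18 months, which are not on 1 scale) by age, tissue and arm, with 1 point per group and no error because only means are in the files used here. Cdkn1a in kidney lies at 5.54 in shamM, 19.85 in casM and 19.98 in shamF at 18 months, while the 3 Mdm2 points of a tissue and age lie close together.

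Trp53 RNA was abundant and nearly level. Its mean in 12-week kidney was 19.1 FPKM in shamM, 20.3 in casM and 19.9 in shamF, and in 12-week liver it was 18.6, 17.1 and 21.3. In 18-month kidney the means were 19.0 in shamM, 17.8 in casM and 16.2 in shamF. The order runs downward from sham males to females, by small steps. Trp53 fell with castration there by 0.24 on the log2 scale (implied SE 0.0948, adjusted p 0.0467 in the authors' deposited table). The female value was lower than that of sham males by a log2 fold of -0.36 (implied SE 0.127, adjusted p 0.0309 in the authors' deposited table). The plain means differed less, by -0.09 and -0.21 in log2(mean + 1). At that age the median difference of all genes between means was 0.127 for castration and 0.108 for sex, a shift that the authors' folds do not carry. In 18-month liver Trp53 means were 11.3, 13.3 and 13.8, and none of the 3 comparisons was called. The gene lies at chr11:69580359-69591873 on the plus strand (mm10) and is overlapped by Wrap53 on the other strand, and the counting was not stated to use strand.

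Mdm2 was not called in any comparison that lists it. At 12 weeks only castrated males against females is listed for it, in each tissue. Its means in 12-week kidney were 22.7 FPKM in shamM, 23.6 in casM and 21.2 in shamF, and those in 12-week liver were 22.0, 22.9 and 24.5. In 18-month kidney they were 22.2, 22.4 and 21.6, and in 18-month liver 10.1, 10.8 and 11.3. For castration in 18-month kidney the authors' deposited table gives a log2 fold of -0.14 (95% interval from -0.316 to 0.0344 by the implied SE), whereas the means differed by 0.02, so the sign depends on the scaling. In 18-month liver the fold for castration was -0.11 with an interval from -0.513 to 0.287 in the authors' deposited table, against a difference of means of 0.09. Both intervals include 0.

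Cdkn1a, the p53 target that encodes p21, was called in opposite directions at the 2 ages, lower with castration at 12 weeks and higher at 18 months. In 12-week liver its mean was 3.93 FPKM in shamM, 0.652 in casM and 0.828 in shamF. Both of the latter arms lay far below sham males, with castrated males 6.03-fold lower. Castration lowered it by a log2 fold of -2.61 (implied SE 0.65, adjusted p 0.000856 in the authors' deposited table). The sex comparison is not listed for this gene. In 12-week kidney the means were 3.18, 2.20 and 3.05, with castrated males below both sham arms. The call for castration was marginal, at a log2 fold of -0.54 and an adjusted p of 0.0499 in the authors' deposited table, and the interval by the implied SE, from -1.38 to 0.306, includes 0. At 12 weeks the p-values come from sampling and go no lower than 5e-05, and the implied errors are wider than those p-values would give.

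At 18 months the order was turned around. Kidney Cdkn1a was 5.54 in shamM, 19.85 in casM and 19.98 in shamF. Castrated males were 3.58-fold and females 3.605-fold above sham males, and those arms were level with each other. Castration raised it by a log2 fold of 1.71 (implied SE 0.401, adjusted p 0.000242 in the authors' deposited table). The female difference was as large, at 1.70, but with an implied SE of 0.861 it did not pass adjustment (p 0.0479, adjusted p 0.192 in the authors' deposited table). Castrated males against females gave a log2 fold of 0.01 with an interval from -1.38 to 1.4 in the authors' deposited table by the implied SE. In 18-month liver the means ran the same way, 9.04 in shamM, 21.1 in casM and 26.2 in shamF. Neither difference passed the test, with log2 folds of 1.03 (implied SE 1.03, adjusted p 0.91) and 1.22 (implied SE 1.61, adjusted p 0.794) in the authors' deposited table. Both errors exceed those of Trp53 in the same comparisons, 0.175 and 0.202. The 2 ages were processed separately and no change with age was tested. The gene lies at chr17:29090976-29100727 on the plus strand (mm10).

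Genes of the circadian clock moved beside Cdkn1a at 12 weeks. Liver Arntl, the activating clock factor also called Bmal1, was 3.11 FPKM in shamM, 0.477 in casM and 0.555 in shamF. Per3, a repressor of the clock, stood at 5.14, 41.96 and 39.1. Dbp, a clock output gene, had means of 59.1, 248.9 and 252.1 but was not called in any 12-week liver comparison. Of the 14 clock genes, 5 rose and 3 fell of 9 tested for castration in 12-week liver, against 41.7% of all genes tested. In 12-week kidney 6 rose and 2 fell of 8 tested, against 70.7%. At 18 months Per1 was the only one called for castration in kidney, higher, against 22.7% of all genes. In 18-month liver 0 were called by DESeq2, with 0 at an unadjusted p under 0.05, against 2.09% of all genes. The labels do not give the time of day of sampling. The part of these values in the Cdkn1a result was not tested, and the clock list was added after earlier results of these data were seen.

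**Figure D2:**
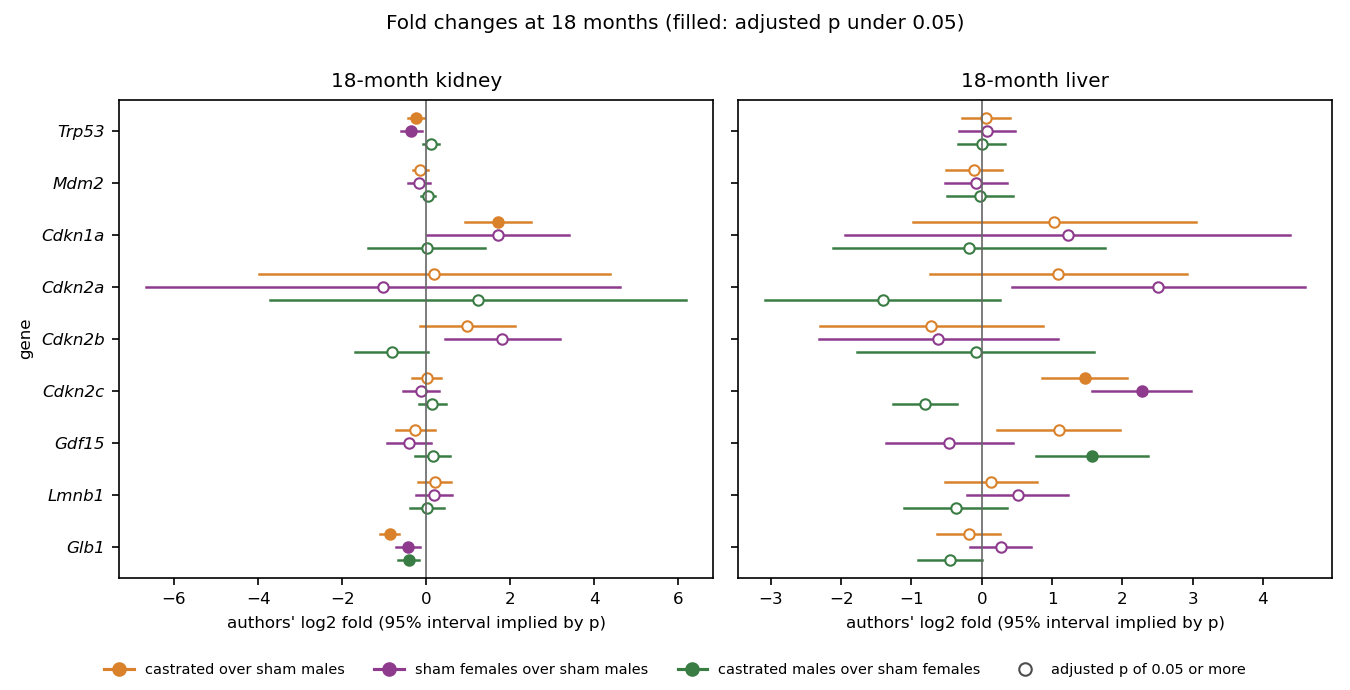
Log2 folds of the 9 genes at 18 months from the authors' deposited table, with 95% intervals implied by their p-values, in kidney (left) and liver (right). Filled points have an adjusted p under 0.05, and the Cdkn1a intervals in liver span from -0.981 to 3.05 for castration, against -0.275 to 0.409 for Trp53.

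Among the INK4 genes, Cdkn2c had the smallest adjusted p of the 9 genes for castration and for sex in 18-month liver. Its product p18 inhibits the kinases CDK4 and CDK6. The mean was 1.83 in shamM, 6.19 in casM and 10.8 in shamF, a stepwise order. Castration raised it 3.38-fold, a log2 fold of 1.46 (implied SE 0.311, adjusted p 0.000243 in the authors' deposited table). Females stood 5.92-fold above sham males, a log2 fold of 2.27 (implied SE 0.359, adjusted p 2.88e-08 in the authors' deposited table). Castrated males against females missed the threshold, with a log2 fold of -0.80 (implied SE 0.233, adjusted p 0.0512 in the authors' deposited table). In 12-week liver the means were closer, 5.78, 5.57 and 7.36 FPKM, and the listed comparison, castrated males against females, was not called (log2 fold -0.40, p 0.0387, adjusted p 0.172 in the authors' deposited table). In kidney Cdkn2c was 10.4, 9.44 and 7.68 FPKM at 12 weeks and 14.3, 15.6 and 13.2 at 18 months, with no call. The gene lies at chr4:109660876-109667189 on the minus strand (mm10).

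Several lists of markers of other cell types had the same order of arms as Cdkn2c in 18-month liver, and others did not. The counts below stand against 2.09% of all genes called for castration and 9.78% for sex. The summed level of 12 macrophage markers was 142.3 in shamM, 215.8 in casM and 622.4 in shamF, with none listed at 0. Of these, 5 rose in females and 0 were called for castration by DESeq2, with 0 at an unadjusted p under 0.05. Cd68, a macrophage lysosomal protein, was 3.09, 5.70 and 16.98, and Clec4f, a marker of the resident liver macrophages, was 15.4, 25.9 and 49.3. The 9 fibroblast and stellate cell markers summed to 107.4, 123.2 and 287.2, with 7 higher in females and 0 called for castration by DESeq2 (3 at an unadjusted p under 0.05). The 8 endothelial markers summed to 42.6, 54.6 and 89.8, with 5 higher in females and 0 called for castration by DESeq2 (0 at an unadjusted p under 0.05). The 11 T cell markers measured summed to 2.75, 11.56 and 17.21, with 2 higher after castration and 4 higher in females. In another order, the 6 B and plasma cell markers measured summed to 9.20, 28.9 and 22.5, with 0 called by DESeq2 for castration or sex (0 and 1 at an unadjusted p under 0.05). The 6 red blood cell markers summed to 985.6, 1476 and 892.8, with Alas2 lower in both comparisons. The 8 hepatocyte markers summed to 73020, 76540 and 74740, of which Alb alone was between 45200 and 49900. Ttr and G6pc were lower in females, and 0 were called for castration by DESeq2 (2 at an unadjusted p under 0.05). The part of these markers in the Cdkn2c result was not tested.

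Cdkn2a and Cdkn2b were near the floor of the data. The value of Cdkn2a sums p16 and Arf, the p53-stabilising product read from the same gene in another frame from its own start. At 12 weeks it was 0.0373 FPKM in sham males and 0.052 in castrated males in kidney, 0.0761 and 0.126 in liver, and listed at 0 in females in both tissues, and it was not tested. In 18-month kidney it was 0.0833, 0.094 and 0.0433. The highest Cdkn2a values were those of 18-month liver, at 0.28 in shamM, 0.65 in casM and 1.88 in shamF. The order there was the same as for Cdkn2c. The female difference, a log2 fold of 2.51 (implied SE 1.06), did not pass adjustment (p 0.018, adjusted p 0.121 in the authors' deposited table). The macrophage, T cell and fibroblast marker sums above stand beside this value too, and their part was not tested.

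Cdkn2b is the neighbour of Cdkn2a on chromosome 4 (chr4:89306299-89311039, minus strand, mm10) and a known target of TGF-β signalling. It was called higher in female kidney at 12 weeks and not at 18 months. At 12 weeks the kidney means were 0.321 FPKM in shamM, 0.509 in casM and 0.802 in shamF. Females were above sham males by a log2 fold of 1.35 (implied SE 0.765, adjusted p 0.0365 in the authors' deposited table). The interval by the implied SE, from -0.153 to 2.85, includes 0. At 18 months the kidney means were 0.327, 0.694 and 1.21, in the same order, but the female fold of 1.81 (implied SE 0.7) stayed just outside the threshold at an adjusted p of 0.0564 in the authors' deposited table. The castrated males lay between the sham arms at both ages, and castration was not called at 18 months (adjusted p 0.245 in the authors' deposited table). In liver the Cdkn2b means were between 0.122 and 0.407 in all 6 groups and no call was made. A fold between means this low rests on few fragments. The 9 fibroblast and stellate cell markers, none listed at 0, summed to 70.6 FPKM in shamM, 157.7 in casM and 184.0 in shamF in 12-week kidney, the same order of arms as Cdkn2b. Both of those tested for sex there (Lum and Acta2) were higher in females, where 86.5% of all genes tested were called. The median difference of the list was 1.32. In 18-month kidney these markers summed to 97.4, 120.1 and 106.1, another order. There DESeq2 called 0 of 9 for sex, with 0 at an unadjusted p under 0.05, against 16.8% of all genes. The part of these markers in the 12-week Cdkn2b result was not tested.

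Gdf15, a stress hormone of the TGF-β family that acts on feeding centres of the brainstem, was raised by castration in 12-week liver. Its means there were 3.23 FPKM in shamM, 9.12 in casM and 16.5 in shamF. Castrated males were 2.82-fold above sham males, a log2 fold of 1.501 (implied SE 0.393, adjusted p 0.000856 in the authors' deposited table). The female mean was the highest, but no test of it is listed. In 12-week kidney the means were 1.77, 2.18 and 2.97, and females were higher by a log2 fold of 0.75 (implied SE 0.469, adjusted p 0.0284 in the authors' deposited table). The interval by the implied SE, from -0.17 to 1.67, includes 0. In 18-month liver the order differed: 6.31 in shamM, 15.2 in casM and 5.38 in shamF, so castrated males alone were high. Castrated males exceeded females by a log2 fold of 1.57 (implied SE 0.405, adjusted p 0.017 in the authors' deposited table). Against sham males their fold of 1.10 did not pass adjustment (implied SE 0.445, p 0.0137, adjusted p 0.306 in the authors' deposited table). In 18-month kidney Gdf15 was 4.81, 4.48 and 3.98, with no call. The gene lies at chr8:70629393-70632456 on the minus strand (mm10).

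Lmnb1, which encodes the lamin B1 of the nuclear envelope whose loss marks senescent cells, was not called in any comparison that lists it. Castration and sex are not listed for it at 12 weeks in either tissue. Its means were 1.93, 1.70 and 1.66 FPKM in 12-week kidney and 1.45, 2.10 and 1.98 in 12-week liver, for sham males, castrated males and females. At 18 months they were 2.24, 2.85 and 2.80 in kidney and 1.74, 2.12 and 2.90 in liver. The largest fold of the gene, females over sham males in 18-month liver, was 0.51 on the log2 scale with an interval from -0.21 to 1.23 in the authors' deposited table. For castration in 18-month kidney the interval ran from -0.195 to 0.592 in the authors' deposited table.

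Glb1, the lysosomal β-galactosidase, had the highest mean of the 9 genes in all kidney groups but 12-week castrated males, where Mdm2 was at 23.6 FPKM and Glb1 at 23.4. At 18 months it differed in kidney between each pair of arms. The 12-week kidney means were 59.1 FPKM in shamM, 23.4 in casM and 28.5 in shamF. Both other arms lay below sham males, and the 2.53-fold lower mean of castrated males has no listed test. Females were lower by a log2 fold of -1.05 (implied SE 0.314, adjusted p 0.000476 in the authors' deposited table). In 18-month kidney the means were 86.5, 52.4 and 69.5, with castrated males lowest. Castration lowered Glb1 by a log2 fold of -0.87 (implied SE 0.111, adjusted p 2.65e-13 in the authors' deposited table). Females were below sham males by -0.44 (implied SE 0.145, adjusted p 0.0168) and castrated males below females by -0.42 (implied SE 0.132, adjusted p 0.0269) in the authors' deposited table. In liver the gene was low and level, at 5.49, 5.11 and 5.92 FPKM at 12 weeks and 6.31, 6.16 and 8.80 at 18 months, with no call. It lies at chr9:114401076-114474898 on the plus strand (mm10).

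Kidney tubule markers changed beside Glb1. In 18-month kidney Slc34a1, the phosphate transporter of the proximal tubule, was 2692 in shamM, 2196 in casM and 1536 in shamF. Umod, made by the thick ascending limb, was 1091, 1585 and 2561. Of the 8 kidney tubule markers, 3 rose (Umod, Slc12a1 and Slc12a3, all of later segments) and 2 fell (Slc34a1 and Lrp2, both proximal) with castration. Among all genes 22.7% were called there. The summed level of the list was 4954, 5277 and 6003, with none listed at 0. Slc34a1 was lowest in females. Lrp2, at 171.4 in shamM, 143.5 in casM and 219.0 in shamF, was lowest in castrated males, as Glb1 was. The part of these markers in the Glb1 result was not tested.

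The other 28 p53 target genes of the list were called in both directions with castration in kidney at both ages and in 12-week liver. In 18-month kidney, where Cdkn1a rose, castration raised 2 (Gadd45a and Ddb2) and lowered 4 (Perp, Ccng1, Zmat3 and Rrm2b) of 28. That share is close to the 22.7% called over all genes, and the median difference was 0.09 beside 0.127 over all genes. Gadd45a, a stress gene that slows the cell cycle, was 25.4 in shamM, 38.45 in casM and 26.6 in shamF. Rrm2b, the p53-induced subunit of ribonucleotide reductase, was 11.4, 8.57 and 9.17. Ccng1, a cyclin that is a classic p53 target, was 87.5, 70.7 and 78.7. In females 1 rose (Ddit4, an mTOR inhibitor, from 8.26 to 15.6) and 2 fell (Pmaip1, a pro-apoptotic gene, from 7.68 to 5.36, and Rrm2b), 3 of 28 against 16.8% of all genes.

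In 12-week kidney castration raised 3 and lowered 7 of 10 p53 targets tested, against 70.7% of all genes tested, with a median of 0.0 over the list. The 7 moved in the direction of Cdkn1a there. Perp, a p53 target of cell junctions, fell from 48.8 to 23.3 FPKM and Ccng1 from 52.1 to 28.9. Ddb2, a DNA repair factor, rose from 6.07 to 11.7. Perp, Ccng1, Zmat3 and Rrm2b were called lower and Ddb2 higher with castration in kidney at both ages. In 12-week liver 4 rose and 3 fell of 9 tested, against 41.7% of all genes tested, and Gadd45a was 3.56 in shamM, 26.75 in casM and 23.75 in shamF, opposite to Cdkn1a in the same libraries. The targets lowered there were Zmat3, Trp53inp1 and Tigar. In 18-month liver DESeq2 called 0 of 28 for castration, against 2.09% of all genes, with 4 at an unadjusted p under 0.05. The median was 0.22 beside 0.124 over all genes. Sex raised 3 of 28 there, Pmaip1, Apaf1 and Phlda3, a share close to the 9.78% called over all genes. Of these, Phlda3, an inhibitor of AKT, rose from 1.15 to 3.90.

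Of the p53 regulators, castration in 18-month kidney raised Mdm4 and Trp53bp1 and lowered Atr, Usp7 and Cop1, 5 of 14 in all against 22.7% of all genes. Mdm4, the partner of MDM2 that masks the p53 activation domain, was 12.8 in shamM, 18.2 in casM and 14.4 in shamF. The log2 fold of Mdm4 was 0.35 (implied SE 0.0771, adjusted p 6.92e-05 in the authors' deposited table). It was also called higher with castration in 12-week kidney, at 21.3, 35.5 and 30.0 FPKM. In 18-month liver 0 of 14 were called by DESeq2 for castration or for sex, with 0 at an unadjusted p under 0.05 in each. Among all genes 2.09% and 9.78% were called.

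**Figure D3:**
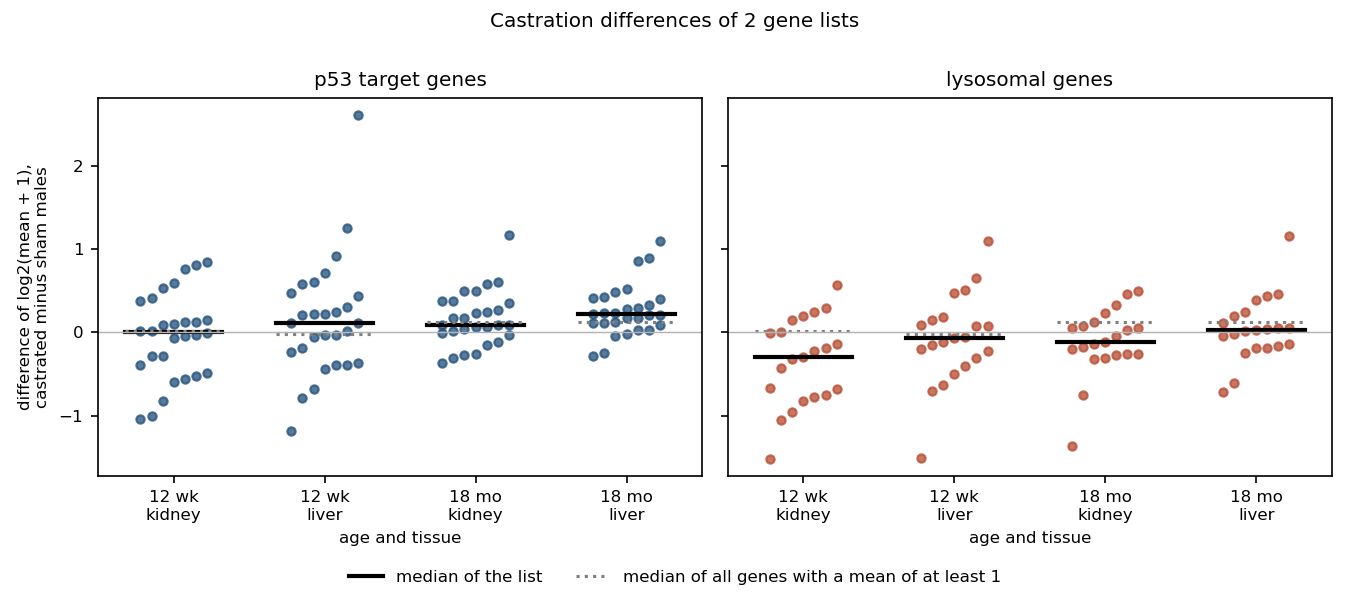
Differences of log2(mean + 1), castrated minus sham males, of the p53 target genes (left, 28 genes) and the lysosomal genes (right, 21 genes) by age and tissue, with 1 point per gene, the list median as a solid line and the median over every gene whose mean reached 1 as a dotted line. The p53 targets spread to both sides of 0 in kidney, and the lysosomal median lies at -0.29 in 12-week kidney and -0.11 in 18-month kidney.

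In 18-month kidney, where Glb1 fell, castration lowered 11 of 21 lysosomal genes and raised 1 (Arsa), against 22.7% called over all genes, with a median of -0.11 beside 0.127 over all genes. Galns, a sulfatase that degrades keratan sulfate, was 69.2 in shamM, 26.2 in casM and 23.3 in shamF, a log2 fold of -1.58 for castration (implied SE 0.135, adjusted p 1.28e-29 in the authors' deposited table). Neu1, the sialidase that works in a complex with β-galactosidase, was 140.6, 83.0 and 80.8. Sex lowered 6 of 21 and raised 1, against 16.8% of all genes. Castrated males were below females in 1 of 21 (Naglu), against 7.14%. In 12-week kidney 7 of 8 genes tested fell with castration and 1 rose (Tfeb, a transcription factor of lysosomal genes), against 70.7% of all genes tested, with Lamp1 at 371.7, 179.7 and 169.1 FPKM and Ctsl at 298.3, 154.2 and 137.8. For sex in 12-week kidney, where Glb1 fell, Cuffdiff called 0 of 3 lysosomal genes tested, with 0 at an unadjusted p under 0.05, against 86.5% of all genes tested. In 18-month liver Galns fell with castration, from 4.19 to 2.40. Of the 7 lysosomal genes with a CACGTG in the promoter window, Naglu and Lamp1 fell and Arsa rose with castration in 18-month kidney.

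Other cell cycle inhibitors were read beside the INK4 genes. Cdkn1c, which encodes p57, a relative of p21, rose with castration in both tissues at both ages. Its means were 26.15, 42.3 and 41.75 FPKM in 12-week kidney and 1.62, 4.03 and 4.17 in 12-week liver. At 18 months they were 19.5, 35.8 and 26.9 in kidney and 0.747, 2.97 and 3.03 in liver, where the log2 fold for castration was 1.83 (implied SE 0.298, adjusted p 1.68e-07 in the authors' deposited table). In the list of 17 genes of the cyclin-dependent kinase and retinoblastoma axis, castration in 18-month kidney raised 2 and lowered 2 (22.7% of all genes were called). In 18-month liver it raised Cdkn1c alone (2.09% of all genes were called). Sex raised 3 of 17 in 18-month liver, where 9.78% of all genes were called. Among them Ccnd1, the D-type cyclin whose kinases p18 inhibits, stood at 3.87 in shamM, 9.27 in casM and 46.05 in shamF (log2 fold of females over sham males 3.36, implied SE 0.397, adjusted p 6.37e-15 in the authors' deposited table).

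Proliferation genes were higher in females in 18-month liver, in 4 of 19 tested (Mki67, Top2a, Ccnb1 and Mcm6) against 9.78% of all genes, with a median of 0.58 beside 0.14 over all genes. Top2a, needed to separate chromosomes in mitosis, was 0.113 in shamM, 0.26 in casM and 1.19 in shamF. Mcm6, a subunit of the replicative helicase, was 1.17, 1.82 and 3.74. Castration raised Mki67 only among the 19 there, where 2.09% of all genes were called. In 18-month kidney castration lowered Mcm6 alone of the 19, from 10.8 to 6.14, a smaller share than the 22.7% called over all genes.

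Of the 29 senescence-associated secretory genes, 11 of 27 tested rose and 0 fell in female against sham male liver at 18 months, against 9.78% of all genes, with a median of 0.77. Mmp12, a macrophage elastase, was 0.25 in shamM, 0.79 in casM and 12.6 in shamF. Ccl5, a chemokine of T cells, was 2.65, 13.1 and 27.4, and it also rose with castration (log2 fold 2.13, implied SE 0.616, adjusted p 0.0307 in the authors' deposited table). Spp1, an extracellular phosphoprotein, was the other secretory gene raised by castration there, from 37.2 to 75.25, where 2.09% of all genes were called. The macrophage marker sums given above had the same order of arms as Mmp12 and Ccl5, and their part was not tested. In 18-month kidney castration raised Spp1, from 694.6 to 1758, and Igfbp7 and lowered Plau, 3 of 29 in all against 22.7% of all genes. In 12-week liver 4 of the 29 secretory genes were tested for castration and all 4 rose, against 41.7% of all genes tested, among them Cxcl1 from 6.19 to 44.05 FPKM. Immune markers tested there rose as well, 4 of 4 B and plasma cell markers, 4 of 4 macrophage markers and 2 of 2 T cell markers. The macrophage markers summed to 100.4 FPKM in shamM, 154.2 in casM and 271.1 in shamF, the B and plasma cell markers to 5.71, 20.02 and 12.91, and the T cell markers to 3.40, 10.41 and 8.80, with Gzmk of the last listed at 0 in shamM. The part of these markers in the secretory result was not tested.

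Among the 12 genes of the nuclear lamina and chromatin read beside Lmnb1, Lbr, the lamin B receptor, fell with castration in kidney at both ages, from 10.5 to 6.31 FPKM at 12 weeks and from 18.5 to 10.2 at 18 months (log2 fold -1.01, implied SE 0.109, adjusted p 2.53e-18 in the authors' deposited table). Of the 12, 1 rose (Sun2), 2 fell (Lbr and Zmpste24) and 9 were not called in 18-month kidney, a share close to the 22.7% called over all genes. In 18-month liver DESeq2 called 0 of 12 for castration, with 1 at an unadjusted p under 0.05, against 2.09% of all genes.

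Polycomb proteins silence the stretch of chromosome 4 that holds Cdkn2a and Cdkn2b. In 18-month kidney 2 of 10 Polycomb genes fell with castration, where 22.7% of all genes were called, Bmi1 from 21.4 to 19.1 and Cbx8 from 5.30 to 3.22, and both fell in females too. In 18-month liver 0 of 10 were called by DESeq2 for castration or sex, with 1 and 0 at an unadjusted p under 0.05. Among all genes 2.09% and 9.78% were called. Cbx7 rose with castration in 12-week liver, from 4.89 to 10.55 FPKM, and was higher in females in 12-week kidney, at 12.8 in sham males and 25.6 in females.

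The integrated stress response, which induces Gdf15 through ATF4 and CHOP, was read from 13 genes. In 12-week liver, where Gdf15 rose with castration, 4 of 8 genes tested fell (Atf5, Asns, Fgf21 and Psat1) and 2 rose (Atf3 and Vldlr), against 41.7% of all genes tested. In 12-week kidney, where Gdf15 was higher in females, both genes tested for sex were higher in females too, Trib3 by a log2 fold of 1.33 and Chac1 by 1.03 (adjusted p 0.0148 and 0.0246 in the authors' deposited table), against 86.5% of all genes tested. Asns, a standard ATF4 target, was 5.10 FPKM in 12-week liver in shamM, 0.358 in casM and 0.42 in shamF. Fgf21, a hepatic stress hormone under the same control, was 5.93, 0.631 and 1.42. Vldlr, a lipoprotein receptor, rose from 0.368 to 3.86. In 18-month liver castration again lowered Asns, from 2.69 to 0.184, and raised Vldlr, from 0.31 to 2.27. None of the other 11 was called, where 2.09% of all genes were. The part of these genes in the Gdf15 result was not tested.

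Genes with the most similar pattern to Cdkn1a over the 12 group means, by Pearson correlation of log2(mean + 1) centred within each age and tissue, were Cst3 (0.984), Aldoa (0.938), Hacd1 (0.912), Cebpb (0.911) and Tprgl (0.91), out of 5981 candidates. They are a cysteine protease inhibitor, a glycolytic aldolase, a fatty acid dehydratase, a C/EBP transcription factor and a presynaptic protein gene. Their differences between arms were smaller than those of Cdkn1a in 12-week liver and at 18 months. Cst3 in 18-month kidney was 352.2 in shamM, 490.0 in casM and 481.5 in shamF, and Cebpb in 12-week liver was 76.1, 61.2 and 61.9 FPKM. No p53 target of the list was among the 5. For Mdm2 the 5 were Nqo1 (0.947), Erf (0.944), Slc13a3 (0.941), Mapk14 (0.916) and Ppp3ca (0.91), out of 5980 candidates, over differences that were small for Mdm2 itself. These values describe 12 means and carry no test. The labels do not say whether the arms of an age and tissue were prepared together.

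**Figure D4:**
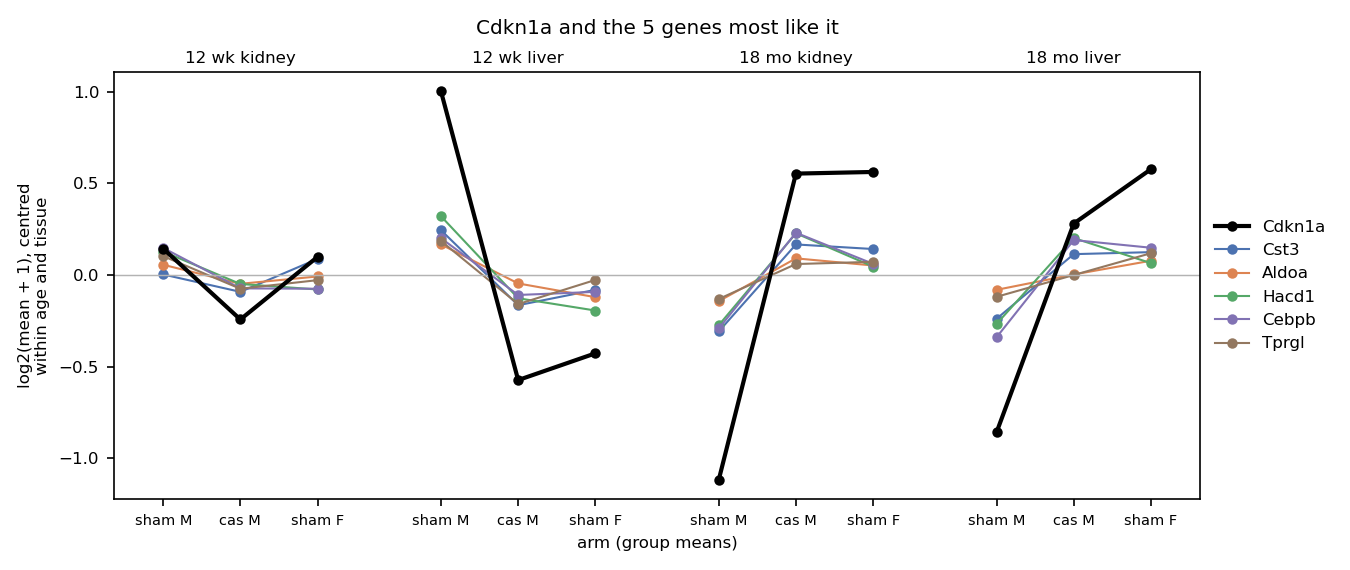
Log2(mean + 1) centred within each age and tissue for Cdkn1a (black) and the 5 genes most like it, over the 12 group means joined by lines within an age and tissue. Sham males are the highest arm at 12 weeks for Cdkn1a and the lowest at 18 months, and the same holds for the other 5 genes except Cst3 in 12-week kidney, which was highest in shamF.

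Kidney and liver were set side by side within each arm, without a test because the files hold no comparison of the tissues. Glb1 was higher in kidney in every arm at both ages, 10.8-fold in 12-week sham males, 4.58-fold in castrated males and 4.82-fold in females. Past a 2-fold limit on mean + 1, 1 of the 9 genes differed in shamM, 2 in casM and 3 in shamF at 12 weeks, against 34.2%, 34.0% and 35.2% of all genes. At 18 months 3 of 9 differed in shamM, 3 in casM and 2 in shamF, against 44.7%, 43.3% and 42.2% of all genes. Gdf15 was higher in liver, 5.56-fold in 12-week females and 4.18-fold in 12-week castrated males. Within sham males the order of levels was Glb1, Mdm2, Trp53, Cdkn2c and Cdkn1a from the top in kidney at both ages, with Cdkn2b and Cdkn2a lowest. In 18-month liver of sham males Trp53 and Mdm2 led, and Cdkn2b and Cdkn2a were again lowest. FPKM is scaled by length, which allows levels of genes to be compared at 12 weeks, and the 18-month scale is not stated.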

How the data were processed

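RNA of kidney and liver was measured in 46 libraries of 12 groups. Trizol extraction, enrichment of polyadenylated RNA and 150 bp paired reads are given in the labels' protocols. HISAT2, SAMtools, Cufflinks and the mm10 build are named in the submitters' processing notes, without versions or roles. At 12 weeks the authors deposited FPKM, as 1 mean per group with 0.01 added, and comparison tables that hold, per the file headers, a test statistic (score), p-values and adjusted p-values in the layout of Cuffdiff. Each gene has 1 entry there, for 1 of 3 comparisons. At 18 months the authors deposited a normalized signal as group means, whose unit is not named, and log2 folds, p-values and adjusted p-values of their DESeq2 tests, per the file headers. At 18 months the deposited sign is that of the group named last over the group named first, and it was oriented here so that it follows the means.

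Differences are of log2(mean + 1), which understates the fold of low genes. Calls use the authors' adjusted p under 0.05. To imply an SE, the 18-month fold was divided by the normal deviate that its p stands for, and the 12-week fold by its test statistic. The 2-fold background counts genes whose mean reached 1 in either group. The values are means, so the depth is unknown, no test across libraries was run, and the tests planned per library gave way to the authors' own. The members and lists were chosen with earlier results of these data known. Named list genes are up to 4 called genes per list and comparison with the largest difference and a larger mean of at least 1, and counts name others. Arntl and Dbp in 12-week liver were named outside this rule. The 5 genes most like Cdkn1a and Mdm2 were sought where the mean reached 5 in some arm of each age and tissue. Positions come from GENCODE vM21. The counting scripts were tested on simulated data (pandas 2.3.3, SciPy 1.17.1). Alternatives were other thresholds, pseudocounts, filters and centring on the median of all genes. A result of the lysosomal list in liver is not reported here.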

Additional observations from a re-analysis of the deposited data

How the results depend on the processing

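All 15 called differences of the 9 genes kept their direction in 60 other values. These used other pseudocounts, centring on the median of all genes, or the authors' folds in place of the means. Another pseudocount cannot change the sign of a difference of 2 means, so those values kept it by construction and say nothing about robustness. Recomputing the Benjamini-Hochberg adjustment moved none of the 12 counts. At an adjusted p under 0.01 the count of called genes went from 1 to 0 for castration and from 3 to 1 for sex in 12-week kidney, from 2 to 0 for sex and from 1 to 0 for castrated males against females in 18-month kidney, and from 1 to 0 for castrated males against females in 18-month liver. It went from 3 to 2 for castration in 18-month kidney, where Trp53 dropped out. At an adjusted p under 0.10 it went from 1 to 2 for castrated males against females in 18-month liver, by Cdkn2c, and from 2 to 3 for sex in 18-month kidney, by Cdkn2b. With a difference of at least 0.5 required, the count became 0 for castration in 12-week kidney, and in 18-month kidney 0 between the sexes and 0 between castrated males and females. By a 2-fold limit alone it became 1 for sex in 12-week kidney and 2 in 12-week liver, and in 18-month kidney it became 1 for castration, 1 between the sexes and 0 for the third comparison. In 18-month liver that limit gave 3 in the castration comparison and likewise 3 between the sexes.

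The count of all genes past 2-fold depends on the added constant. With 0.1 in place of 1 it became 1205 (castration), 1894 (sex) and 208 (castrated males against females) in 12-week kidney and 879, 949 and 169 in 12-week liver. At 18 months it became 535, 757 and 353 in kidney and 637, 1344 and 561 in liver. With a mean of at least 5 required, the sex count in 18-month liver was 483, from 749. With 0.1, a constant chosen after seeing the data, 6 of the 9 genes in place of 3 lay past 2-fold between kidney and liver of 18-month castrated males.

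No paired analysis was possible because the values are group means. For the same reason leaving out each replicate and the replicate block were not run, and neither was a kidney against liver count at a stricter adjusted p, since no such test is in the tables. The limits are the missing spread between libraries, the unknown depth, the single listing of each gene at 12 weeks and the unnamed 18-month unit.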
